A study of Mus musculus with 6 samples.

Results

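The respiratory chain and ATP synthase subunits were described by complex and by genome of origin in epididymal white adipose tissue (eWAT) of mice with cancer-associated cachexia (CAC) and of control mice (CONT). Members were the protein-coding genes of the count table whose symbols begin with Nduf followed by a, b, c, s or v and a number, with Uqcr, with Cox and a number from 4 to 8, or with Atp5, the Sdha to Sdhd genes, and the Nd, Co, Cytb and Atp genes of the mitochondrial genome. Of 55039 genes in the table, 98 were members, 85 nuclear and 13 mitochondrial. Complex I had 37 nuclear members, complex II had 4, complex III had 8, complex IV had 18 and complex V (ATP synthase) had 18. The symbol rule left out Ndufab1, Cyc1 and Cycs, which are given with the partner genes of the chain. One symbol, Atp5o, was listed on 2 rows, of which 1 had no count in any library. Of the 98 members, 97 had a count and 94 passed the filter on low counts, 81 nuclear and all 13 mitochondrial. The 4 members that did not pass were Cox6a2, Cox7b2, Cox8c and the empty Atp5o row.

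The mice were C57BL/6 males of 6 to 7 weeks. CAC mice were injected subcutaneously with Lewis lung carcinoma (LLC) cells, a transplantable mouse tumour line, and CONT mice were injected with PBS alone. The labels and methods name no transgene or other engineered allele. The tissue was taken 28 days after injection, and each of the 3 CAC and 3 CONT libraries came from 1 mouse. Poly(A) RNA was sequenced from the whole fat depot, so that fewer cells of a type and less RNA per cell cannot be told apart.

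Complex I takes electrons from NADH and complex II from succinate, coenzyme Q carries them to complex III, and cytochrome c carries them on to complex IV, which reduces oxygen. Complexes I, III and IV pump protons across the inner mitochondrial membrane, and complex V uses the returning protons to make ATP. The mitochondrial genome encodes the membrane core of complexes I, III, IV and V, while complex II and all other subunits are encoded in the nucleus and imported. White adipocytes hold fewer mitochondria than brown adipocytes, in which uncoupling proteins release the proton gradient as heat.

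The libraries held between 15713794 counts in CONT 1 and 25926425 counts in CAC 3. CONT 1 stood apart. Genes of the mitochondrial genome took 30.2% of its counts and 3.89% to 5.04% of the counts of the other 5 libraries. Germ-cell markers, which do not belong to fat, summed to 1333 CPM (counts per unit of the TMM-adjusted library size, on the usual CPM scale) in CONT 2 and 1832 CPM in CAC 3, and to between 8.87 and 33.8 CPM in the other libraries. Epididymis markers summed to 12586 CPM in CONT 3 and to 0.283 to 154 CPM elsewhere. The defining adipocyte markers were read in every library, with sums of 24154 to 55429 CPM. Results are therefore given with all 6 libraries and, where it matters, without CONT 1.

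Promoters are shown because the nuclear subunits have to be made together from genes scattered over many chromosomes. RefSeq promoters (GRCm38.p6, 250 bases before to 50 bases after the transcription start) were given for 66 of the 84 nuclear member symbols, as 71 windows, since 5 genes had more than one. The palindromic core of the NRF1 site, CGCATGCG, was present in a promoter of 9 of these 66 genes, or 13.6%, and of 2.07% of all 27025 genes with a promoter. The ETS letters CCGGAAG, read by GABPA and other ETS factors, were present for 16 member genes, or 24.2%, and for 9.93% of all genes. The ERR element AAGGTCA was present for 8 member genes, or 12.1%, and for 5.38% of all genes. Both strands were searched, no motif contains another, and 24 of the 66 genes held at least 1 of them. Uqcrc1, a core subunit of complex III, had the NRF1 letters near its start (in capitals), Sdhb, the iron-sulfur subunit of complex II, had the ETS letters (in capitals), and Cox7a1, a heart and muscle isoform of a complex IV subunit, had none of the 3.
Uqcrc1, chr9:108936398-108936697, plus strand: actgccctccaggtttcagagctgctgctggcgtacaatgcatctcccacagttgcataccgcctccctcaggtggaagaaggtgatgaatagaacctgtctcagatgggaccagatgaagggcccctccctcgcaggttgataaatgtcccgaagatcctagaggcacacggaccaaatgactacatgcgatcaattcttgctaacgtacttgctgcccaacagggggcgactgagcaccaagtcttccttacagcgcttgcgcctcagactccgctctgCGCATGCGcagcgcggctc
Sdhb, chr4:140961021-140961320, plus strand: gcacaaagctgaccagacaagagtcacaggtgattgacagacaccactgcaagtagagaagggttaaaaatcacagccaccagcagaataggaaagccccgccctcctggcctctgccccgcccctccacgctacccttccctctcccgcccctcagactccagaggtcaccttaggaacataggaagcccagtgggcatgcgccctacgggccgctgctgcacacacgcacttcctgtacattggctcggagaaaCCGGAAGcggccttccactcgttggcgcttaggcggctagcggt
Cox7a1, chr7:30183921-30184220, plus strand: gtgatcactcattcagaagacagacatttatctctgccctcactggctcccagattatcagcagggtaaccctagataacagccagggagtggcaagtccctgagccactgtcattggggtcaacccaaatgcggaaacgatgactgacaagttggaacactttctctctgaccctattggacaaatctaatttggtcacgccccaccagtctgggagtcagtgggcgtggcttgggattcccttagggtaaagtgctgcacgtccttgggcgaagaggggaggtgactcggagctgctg
A match is a description of letters and not of binding. Among 5 members with higher CAC values at an unadjusted p under 0.05 and a RefSeq promoter, 1 held the ETS letters (Sdhb) and 0 held the NRF1 core or the ERR element.

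The question of the comparison was whether transcripts of the chain differed between CAC and CONT fat. No member passed an adjusted p under 0.05 in edgeR's quasi-likelihood test, as no gene of the 17296 tested did (0% called). At an unadjusted p under 0.05, 8 of 81 nuclear members had higher CAC values, where 6.31% of all genes did, and 3 of 81 had lower values, where 6.95% of all genes did. The 8 were Sdha, Atp5b, Uqcrc2, Ndufs1, Atp5a1, Cox5a, Sdhb and Ndufv1, and the 3 were Cox4i2, Cox7a1 and Ndufa4l2. All 3 CAC libraries were above all 3 CONT libraries in 11 of the 81 members (11.8% of all genes) and below them in 3 (10.7% of all genes). The median log2 fold change of CAC over CONT over the 81 nuclear members was -0.03, with 35 members higher and 46 lower, and that over all genes tested was -0.06. Scaling by library totals alone turned the sign, with a median of 0.12 and 47 members higher and 34 lower, while the all-gene median moved by under 0.1.

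That median moved with the control libraries. It was 0.40 without CONT 1, -0.23 without CONT 2, -0.27 without CONT 3 and -0.30 without CONT 2 and CAC 3. Summed over the nuclear members, the level was 21532 CPM in CONT 1, 11538 in CONT 2 and 12023 in CONT 3, and 15757, 16523 and 18612 CPM in CAC 1, 2 and 3. On this scale CONT 1 was above every CAC library, and CONT 2 and 3 were below every CAC library. As a share of all counts, CONT 1 held 1.537%, level with CAC 1 (1.535%) and below CAC 2 and CAC 3 (1.793% and 1.901%). In CPM, CONT 1 was the highest of the 6 libraries in 59 of 81 nuclear members, against 27.0% of all genes. The 3 CAC libraries were all above CONT 2 and CONT 3 in 58 of 81, against 19.5% of all genes. The median log2 ratio of CONT 1 to the mean of CONT 2 and CONT 3 was 1.07 over the nuclear members and -0.14 over all genes.

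**Figure D1:**
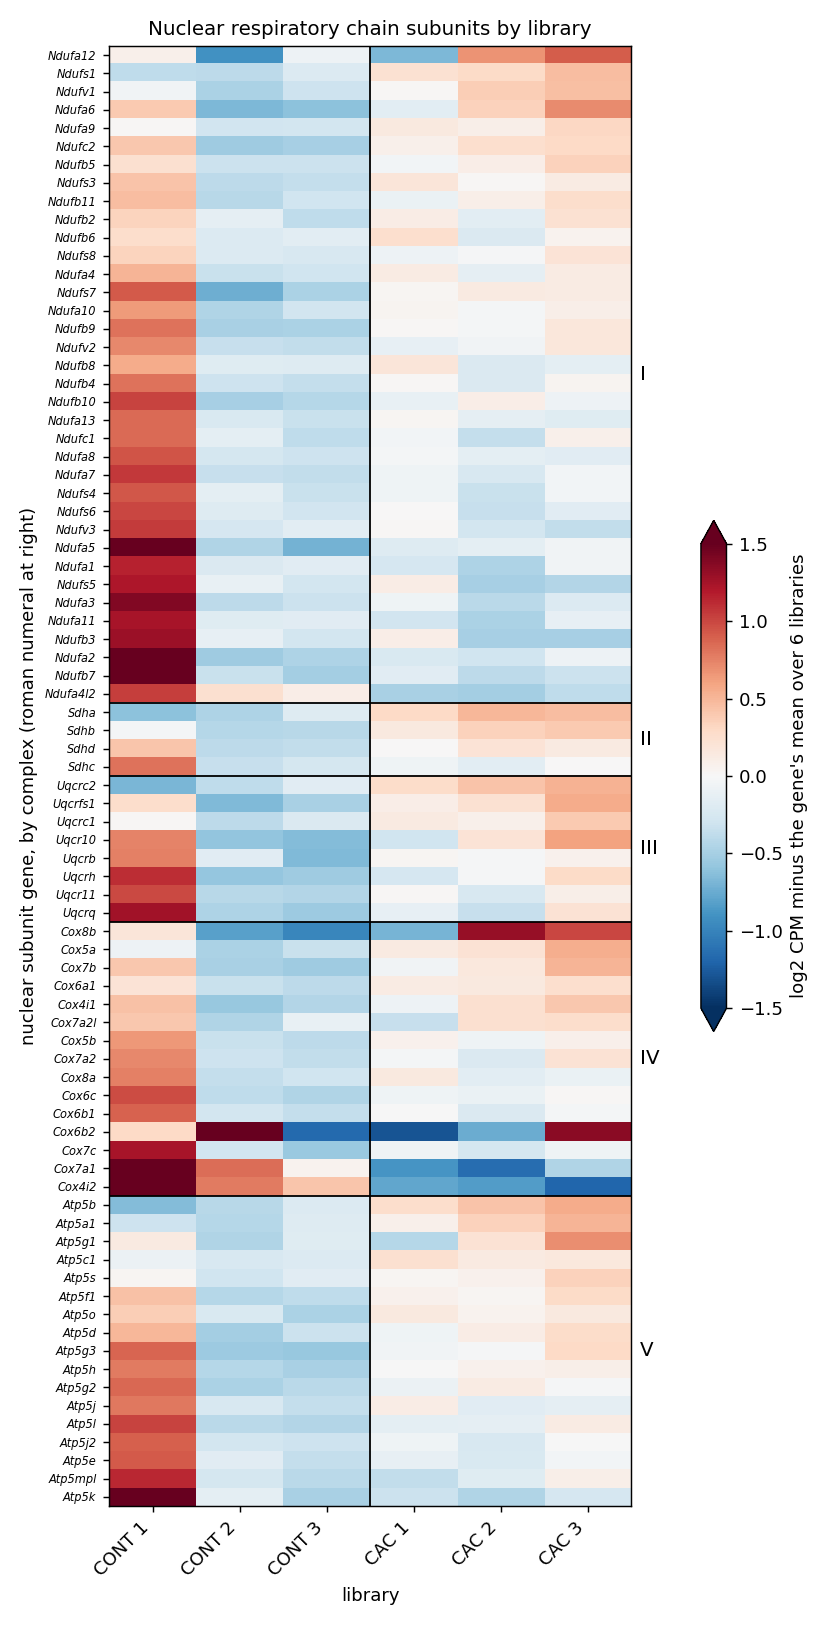
Heat map of 80 of the 81 nuclear subunits tested (rows, by complex and by fold change within it) in the 6 libraries (columns). Colour gives log2 CPM minus the mean of the gene over the 6 libraries, with values beyond 1.5 drawn at the end of the scale. CONT 1 is the reddest column for most genes and CONT 2 and 3 the bluest.

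Without CONT 1, 72 of 83 nuclear members tested were higher in CAC and the median log2 fold change was 0.40. In that edgeR fit 40 of 83 had higher CAC values at an unadjusted p under 0.05 (7.30% of all genes) and 3 had lower ones (8.28% of all genes), with 0 past an adjusted p under 0.05. DESeq2 with all libraries gave an adjusted p under 0.05 to 5 of 81 nuclear members higher in CAC, Sdha, Atp5b, Ndufs1, Uqcrc2 and Atp5a1 (3.22% of all genes), and to 1 lower, Cox4i2 (2.40% of all genes). DESeq2 without CONT 1 gave it to 34 of 83 higher (5.84% of all genes) and 2 lower (5.18% of all genes). The limma-voom fit with sample quality weights, in which CONT 1 had the lowest weight of 0.186, gave an adjusted p under 0.05 to 8 nuclear members, Sdha, Sdhb, Ndufs1, Ndufv1, Ndufc2, Uqcrc2 and Cox5a higher and Cox4i2 lower, where 2.74% of all genes were called higher and 2.79% lower.

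Other libraries moved the count of 8 as well. It was 3 without CONT 2 (4.0% of all genes), 4 without CONT 3 (5.0%), 10 without CAC 1 (6.31%), 4 without CAC 2 (3.55%) and 3 without CAC 3 (3.84%). Without CONT 2 and CAC 3, the libraries with germ-cell transcripts, it was 0 (2.17% of all genes).

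All 8 members with higher values were among the 40 with a listed transcript length above the nuclear median, and all 3 with lower values were among the 41 others. Across the 81 nuclear members, the log2 ratio of CONT 1 to CONT 2 and 3 went with listed length with a Pearson r of -0.368 and a Spearman rho of -0.352, and across 16792 genes with -0.205 and -0.278. These are descriptions over genes that share the same libraries. Without CONT 1, 40 of the 40 longer and 32 of the 41 shorter members had higher CAC values. The part of transcript length in the fold changes with all libraries was not tested beyond an offset for length, under which 14 nuclear members had higher values at an unadjusted p under 0.05 (7.23% of all genes).

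**Figure D2:**
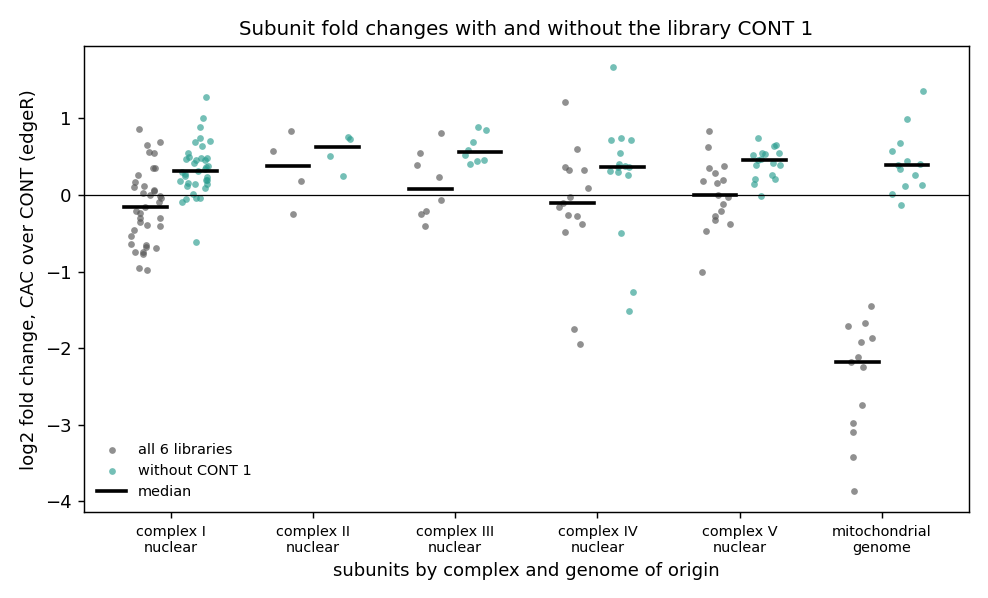
Log2 fold change of CAC over CONT (edgeR, y axis) of each member, by complex and genome of origin (x axis), with all 6 libraries (grey) and without CONT 1 (green). Black bars are medians, which went from -2.18 to 0.39 for the mitochondrial genome and from -0.16 to 0.31 for complex I.

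Complex I, the NADH dehydrogenase, was split by role. The 7 nuclear core subunits hold the flavin and the iron-sulfur clusters, and 30 accessory subunits surround them. Ndufa4 and Ndufa4l2 were counted here by their symbols, although Ndufa4 is now known as a subunit of complex IV. Without them the complex I median was also -0.16, and with them that of complex IV was also -0.10. Of the core, 5 were higher and 2 lower in CAC (median log2 fold change 0.17, or 0.64 without CONT 1). Of the accessory subunits, 9 were higher and 21 lower, with a median of -0.30, or 0.25 without CONT 1. Ndufs1 (chr1:63143596-63176833, minus strand), the largest core subunit, was read at 97.9, 96.8 and 110 CPM in CONT 1, 2 and 3, and at 149, 155 and 174 CPM in CAC 1, 2 and 3. All CAC libraries were above all CONT libraries, and CONT 1 was among the lowest, unlike in most members. Its log2 fold change was 0.65 ± 0.17 (SE, n = 3 per group), with an edgeR unadjusted p of 0.00822 and an adjusted p of 0.266, and 0.64 without CONT 1. Ndufv1, which binds NADH and FMN, was read at 189, 141 and 158 CPM in CONT and at 198, 253 and 269 CPM in CAC. Its groups were separated by the small step from CONT 1 to CAC 1, and its log2 fold change was 0.56 ± 0.22 (SE; edgeR unadjusted p = 0.0416, adjusted p = 0.360).

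Ndufs7, which carries the last iron-sulfur cluster before the quinone, was read at 290, 92.5 and 110 CPM in CONT and at 157, 168 and 167 CPM in CAC. Its log2 fold change was -0.00 with CONT 1 and 0.71 without it. The accessory subunit Ndufa9 was the only other member of complex I with all CAC libraries above all CONT libraries, at 89.7 to 111 CPM in CONT and 116 to 136 CPM in CAC (log2 fold change 0.36 ± 0.18 SE; edgeR unadjusted p = 0.0933, adjusted p = 0.439).

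CONT 1 was the highest library in 26 of the 30 accessory subunits. Ndufb7, a small subunit of the membrane arm, was read at 309, 74.7 and 66.1 CPM in CONT and at 84.0, 71.8 and 75.5 CPM in CAC. Ndufa2 was read at 439, 99.6 and 104 CPM in CONT and at 123, 117 and 136 CPM in CAC, and Ndufa5 at 305, 76.3 and 63.7 CPM in CONT and at 91.0, 93.6 and 100 CPM in CAC. In all 3 the CAC libraries lay near CONT 2 and CONT 3, with CONT 1 far above both, and the log2 fold changes of -0.96, -0.77 and -0.64 became 0.15, 0.31 and 0.45 without that library. Ndufa6 was read at 178, 84.6 and 88.1 CPM in CONT and at 121, 172 and 221 CPM in CAC, so that CONT 1 lay among the CAC libraries. Its log2 fold change was 0.55 ± 0.38 (SE) with all libraries and 1.00 without CONT 1. Ndufs4, often studied because its loss causes a mitochondrial encephalopathy, was read at 132, 62.6 and 55.0 CPM in CONT and at 66.4, 55.1 and 67.5 CPM in CAC, with CONT 1 again alone above the rest.

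Complex II, the succinate dehydrogenase, is the one complex made only from nuclear genes, and 3 of its 4 subunits were higher in CAC. Its median log2 fold change was 0.38, and 0.62 without CONT 1. Sdha (chr13:74322254-74350280, minus strand), the flavoprotein that oxidizes succinate, was read at 413, 459 and 551 CPM in CONT and at 774, 893 and 872 CPM in CAC. Every CAC library exceeded every CONT library, with a log2 fold change of 0.83 ± 0.24 (SE; edgeR unadjusted p = 0.0113, adjusted p = 0.275). Sdhb, whose promoter is given above, passes the electrons on through iron-sulfur clusters. It was read at 192, 147 and 147 CPM in CONT and at 217, 250 and 258 CPM in CAC (log2 fold change 0.58 ± 0.21 SE; edgeR unadjusted p = 0.0299, adjusted p = 0.335).

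The membrane anchors Sdhc and Sdhd overlapped between the groups. Sdhc was read at 278, 124 and 132 CPM in CONT and at 151, 142 and 158 CPM in CAC, so that CONT 1 alone lay above the CAC libraries and turned its log2 fold change from 0.25 without it to -0.24 ± 0.35 with it. Sdhd was read at 202, 115 and 118 CPM in CONT and at 153, 176 and 167 CPM in CAC (log2 fold change 0.19 ± 0.27 SE, and 0.51 without CONT 1). Per length, as mean FPKM levels, Sdha stood at 92.4 in CONT and 167 in CAC, Sdhb at 58.3 and 88.2, Sdhc at 44.1 and 37.7, and Sdhd at 95.0 and 110. The catalytic subunits thus had higher CAC levels than CONT levels in every library, and the anchors did not. The listed transcript lengths were 4126, 2239, 3250 and 1231 bases for Sdha, Sdhb, Sdhc and Sdhd.

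In complex III, the cytochrome bc1 complex, 4 of 8 nuclear subunits were higher in CAC with all libraries and 8 of 8 without CONT 1, with median log2 fold changes of 0.08 and 0.56. Uqcrc2 (chr7:120635176-120659524), one of the core proteins, was read at 108, 134 and 155 CPM in CONT and at 211, 234 and 250 CPM in CAC. The groups were well apart, with a log2 fold change of 0.81 ± 0.21 (SE; edgeR unadjusted p = 0.00754, adjusted p = 0.264) and 0.70 without CONT 1. Its partner core protein Uqcrc1 was read at 245, 184 and 209 CPM in CONT and at 265, 256 and 318 CPM in CAC. These groups did not overlap either, but the log2 fold change of 0.40 ± 0.22 had an edgeR unadjusted p of 0.114 (adjusted p = 0.462).

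Uqcrfs1, the Rieske iron-sulfur protein, was read at 265, 139 and 156 CPM in CONT and at 234, 257 and 323 CPM in CAC. CONT 1 exceeded 2 of the CAC libraries, and the log2 fold change was 0.54 ± 0.31 (SE; edgeR unadjusted p = 0.125, adjusted p = 0.478), or 0.89 without CONT 1. The small subunit Uqcrq showed the reverse balance, with 694, 210 and 199 CPM in CONT and 266, 227 and 338 CPM in CAC. Its level in CONT 1 was far above all others, and its log2 fold change was -0.41 ± 0.53 with that library and 0.45 without it.

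Complex IV, the cytochrome c oxidase, was represented by 15 nuclear members tested, of which 6 were higher and 9 lower in CAC (median log2 fold change -0.10, or 0.36 over 17 members without CONT 1). Cox5a (chr9:57521274-57532426), a subunit present in all tissues, was read at 68.6, 52.3 and 57.4 CPM in CONT and at 79.5, 84.2 and 106 CPM in CAC. It was the only member of the complex with every CAC library above every CONT library, with a log2 fold change of 0.60 ± 0.20 (SE; edgeR unadjusted p = 0.0210, adjusted p = 0.305). Cox4i1, the common form of the subunit that regulates the enzyme, was read at 966, 482 and 527 CPM in CONT and at 676, 841 and 946 CPM in CAC (log2 fold change 0.32 ± 0.35 SE, and 0.72 without CONT 1). Per length, Cox6a1 and Cox8a had the highest mean FPKM levels of all nuclear members, 646 in CONT and 821 in CAC for Cox6a1, and 821 and 743 for Cox8a.

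Complex V was split into the F1 head, which makes ATP, and the other subunits of the stator, membrane part and regulators. Of the 5 F1 subunits, 4 were higher in CAC (median log2 fold change 0.35, or 0.54 without CONT 1). Of the 12 other members tested, 4 were higher and 8 lower, with a median of -0.08, or 0.43 without CONT 1. Atp5b (chr10:128083273-128090391), the catalytic beta subunit, was read at 1177, 1385 and 1600 CPM in CONT and at 2216, 2487 and 2716 CPM in CAC. No library of one group reached the other, and its log2 fold change was 0.83 ± 0.29 (SE; edgeR unadjusted p = 0.0243, adjusted p = 0.314). Atp5a1, the alpha subunit, was read at 718, 664 and 785 CPM in CONT and at 941, 1139 and 1270 CPM in CAC (log2 fold change 0.63 ± 0.25 SE; edgeR unadjusted p = 0.0438, adjusted p = 0.366).

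The gamma subunit Atp5c1, which turns inside the head, lay at 254 to 281 CPM in CONT and at 328 to 354 CPM in CAC, without overlap (log2 fold change 0.35 ± 0.19 SE; edgeR unadjusted p = 0.113, adjusted p = 0.461). Per length, Atp5b had a mean FPKM level of 263 in CONT and 477 in CAC, and Atp5a1 185 and 291, although the assembled head holds both in equal number. Atp5k, a small subunit of the membrane part, had the lowest fold change of the nuclear members of complex V. It was read at 241, 68.9 and 54.3 CPM in CONT and at 61.1, 55.5 and 63.9 CPM in CAC, so that its log2 fold change of -1.01 ± 0.57 rested on CONT 1 and was -0.02 without it.

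The c ring of ATP synthase, which turns as protons pass, is encoded by 3 genes of differing level. Atp5g3 was read at 721, 272 and 267 CPM in CONT and at 380, 392 and 488 CPM in CAC (log2 fold change -0.00, and 0.65 without CONT 1). Atp5g2 was read at 245, 97.4 and 102 CPM in CONT and at 127, 147 and 134 CPM in CAC (-0.12, and 0.46 without CONT 1), and Atp5g1 at 59.9, 40.1 and 48.3 CPM in CONT and at 40.8, 63.3 and 88.9 CPM in CAC (0.38, and 0.55 without CONT 1). In Atp5g3 and Atp5g2 all CAC libraries lay between CONT 1 and the other CONT libraries, and in Atp5g1 CAC 1 lay within the CONT range and CAC 2 and CAC 3 above it.

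**Figure D3:**
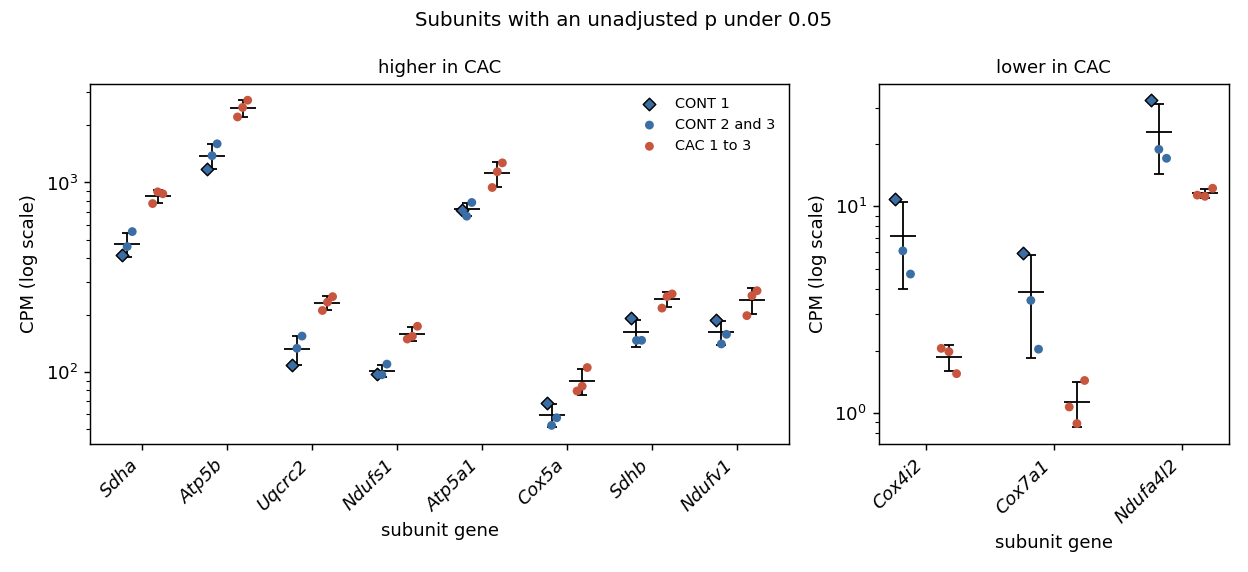
CPM (log scale) of the 11 members with an unadjusted p under 0.05, higher in CAC at left and lower at right, per library with group means and SD (n = 3). CONT 1 is drawn as a diamond. CAC and CONT libraries do not overlap in any of the 11, which were chosen by that p and so tend to be separated. Of all genes tested, 11.8% had all CAC libraries above all CONT libraries and 10.7% had them below.

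The 3 nuclear members with lower CAC values at an unadjusted p under 0.05 (6.95% of all genes) were isoforms of restricted expression. Cox4i2 (chr2:152754173-152765037), the lung form of subunit 4, which responds to low oxygen, was read at 10.9, 6.09 and 4.70 CPM in CONT and at 2.05, 1.98 and 1.55 CPM in CAC. Every CAC library was below every CONT library, with a log2 fold change of -1.95 ± 0.45 (SE; edgeR unadjusted p = 0.00376, adjusted p = 0.230) and -1.52 without CONT 1. Cox7a1 was read at 5.97, 3.50 and 2.03 CPM in CONT and at 1.07, 0.888 and 1.43 CPM in CAC. Its groups did not overlap, with a log2 fold change of -1.75 ± 0.54 (SE; edgeR unadjusted p = 0.0149, adjusted p = 0.285) and -1.27 without CONT 1. Ndufa4l2 (chr10:127514967-127517154), a homologue of Ndufa4 that is known as a target of the hypoxia factor HIF1, was read at 32.7, 18.9 and 17.1 CPM in CONT and at 11.3, 11.2 and 12.2 CPM in CAC. All CAC libraries were below all CONT libraries (log2 fold change -0.98 ± 0.30 SE; edgeR unadjusted p = 0.0148, adjusted p = 0.285), and the value was -0.62 without CONT 1.

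Each of these isoforms can be set against the common form in the same library. Cox4i2 had 1.13, 1.26 and 0.891 counts per 100 of Cox4i1 in CONT and 0.304, 0.235 and 0.164 in CAC. The ratio of Cox7a1 to 100 counts of Cox7a2 was 3.00, 3.60 and 2.18 in CONT and 0.902, 0.852 and 1.02 in CAC. For Ndufa4l2 per 100 of Ndufa4 it was 10.3, 10.7 and 9.41 in CONT and 4.66, 5.51 and 5.06 in CAC. CONT 1 lay between the other CONT libraries in all 3 ratios, unlike in the levels. Each of these 3 ratios had a two-sided exact permutation p of 0.1, the smallest that 3 against 3 libraries can give.

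Cox8b, the isoform of brown fat, heart and muscle, went the other way in only some mice. It was read at 24.7, 12.4 and 11.1 CPM in CONT and at 13.5, 54.0 and 43.6 CPM in CAC. CAC 2 and CAC 3 were above all CONT libraries and CAC 1 was not, giving a log2 fold change of 1.21 ± 0.56 (SE; edgeR unadjusted p = 0.0707, adjusted p = 0.413). Per 100 counts of Cox8a it had 2.89, 3.13 and 2.70 in CONT and 2.41, 11.9 and 9.22 in CAC (two-sided exact permutation p = 0.4). Cox7a1 and Cox8b, which are often used together as markers of brown fat, thus had fold changes of opposite sign. The summed list of 14 brown and beige fat markers, which includes both, was 83.1 to 86.9 CPM in CONT and 81.3, 154 and 182 CPM in CAC 1, 2 and 3. The Cox8b levels above are part of these sums. Of the 10 listed genes tested, 7 were higher and 3 lower in CAC. All CAC libraries were above all CONT libraries in 0 (11.8% of all genes) and below them in 1 (10.7% of all genes).

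The isoforms of male germ cells followed individual libraries. Cox8c was read 303 times in CONT 2, 290 times in CAC 3 and at most 1 time elsewhere. Cox7b2 was read 95 and 121 times in those libraries and 0 times in the others. Cox6b2 had 9.38 and 6.81 counts per 100 of Cox6b1 there and 1.07 to 1.83 in the other 4 libraries. These are the libraries with the high sums of germ-cell markers, a list that includes all 3 of these isoforms. Without them the other 11 germ-cell markers summed to 1299.9 CPM in CONT 2, 1803 CPM in CAC 3 and 6.65 to 27.1 CPM in the other libraries. Cox6a2, the muscle form of subunit 6a, had 4, 7 and 5 counts in CONT and 1, 1 and 5 in CAC, and did not pass the filter on low counts. Per 100 counts of Cox6a1 this was 0.0496, 0.0617 and 0.0476 in CONT and 0.00602, 0.00582 and 0.0255 in CAC, without overlap (two-sided exact permutation p = 0.1), on these few counts. The ATP synthase c subunit genes, which encode the same mature protein, kept overlapping ratios, with 8.31 to 18.1 counts of Atp5g1 per 100 of Atp5g3 in CONT and 10.7 to 18.2 in CAC (two-sided exact permutation p = 0.6).

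**Figure D4:**
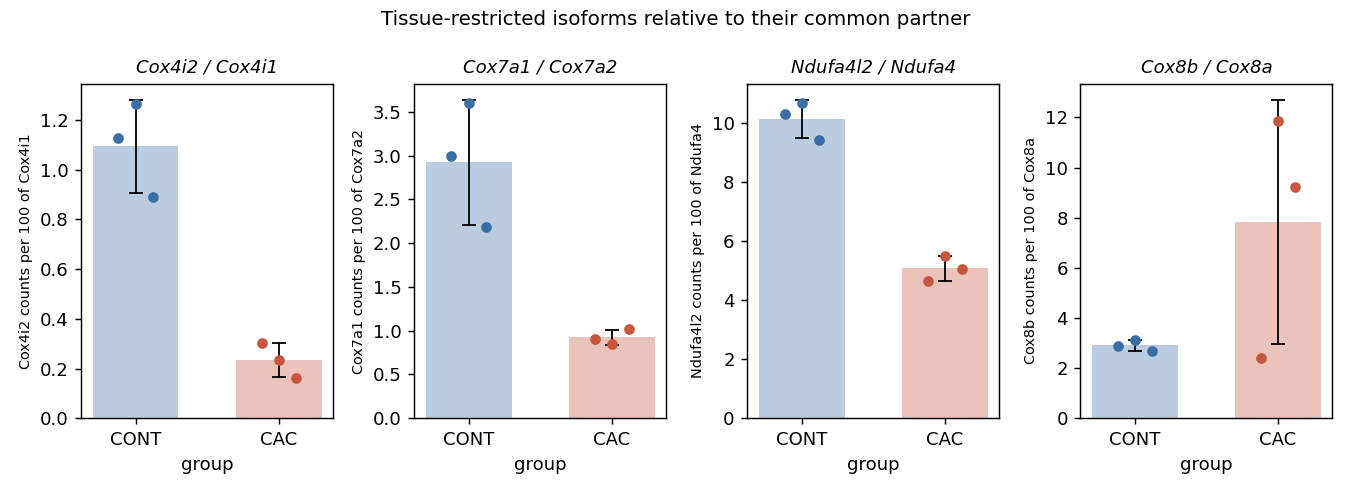
Counts of 4 restricted isoforms per 100 counts of the common isoform, by group. Points are libraries and bars are means with SD (n = 3). The CAC points of Cox4i2, Cox7a1 and Ndufa4l2 all lie below the CONT points, and 2 of the 3 CAC points of Cox8b lie above.

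The mitochondrial genome gave the opposite sign to its own median when CONT 1 was left out. With all libraries, all 13 protein genes were lower in CAC (median log2 fold change -2.18), and 0 had an edgeR unadjusted p under 0.05. Without CONT 1, 12 of 13 were higher, with a median of 0.39, and 1 of them, mt-Nd3, had an edgeR unadjusted p under 0.05 with a log2 fold change of 0.99 (7.30% of all genes). DESeq2 without CONT 1 gave an adjusted p under 0.05 to 2 of the 13, mt-Nd1 (adjusted p = 0.0281) and mt-Nd3 (adjusted p = 0.00584), both higher in CAC (5.84% of all genes). mt-Co1, the catalytic subunit of complex IV, was read at 155941, 13456 and 16090 CPM in CONT and at 20344, 18563 and 19070 CPM in CAC. CONT 1 held it at several times the level of any other library, and the log2 fold change was -1.68 ± 1.04 (SE; edgeR unadjusted p = 0.152, adjusted p = 0.508) with it and 0.40 without it. Without CONT 2, which left CONT 1 and CONT 3 as controls, 9 of the 13 were lower in CAC at an edgeR unadjusted p under 0.05 (5.30% of all genes), and without CONT 3 there were 3 (4.25% of all genes). DESeq2 with all libraries gave a p to 1 of the 13 only, since it gives none where it takes a count for an outlier.

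**Figure D5:**
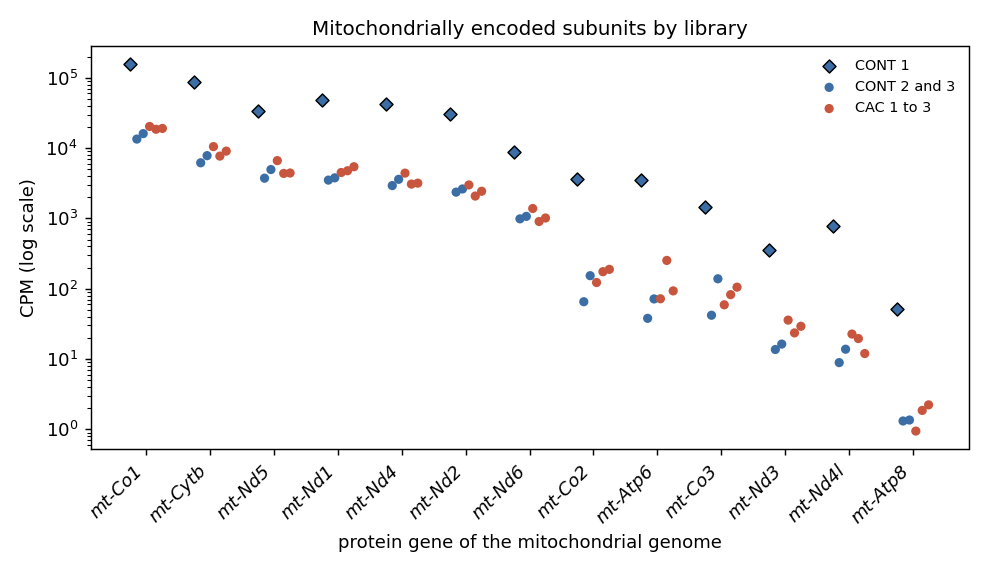
CPM (log scale) of the 13 protein genes of the mitochondrial genome per library, ordered by level. CONT 1 (diamonds) lies above all other libraries for every gene. The other 5 libraries lie nearer to each other, from 37.9 to 253 CPM in mt-Atp6.

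The genes fell into levels that did not follow their order on the genome. Per length, outside CONT 1, mt-Co1 lay at 6951 to 10848 FPKM, mt-Cytb at 4316 to 7573 and mt-Nd1 at 2927 to 4630. The 7 highest genes, mt-Co1, mt-Cytb, mt-Nd1, mt-Nd2, mt-Nd4, mt-Nd5 and mt-Nd6, took 97.7% to 99.5% of the counts of the 13. By contrast mt-Co2, whose product receives the electrons from cytochrome c, lay at 76.2 to 225 FPKM, mt-Co3 at 42.7 to 142, mt-Atp6, the proton channel of ATP synthase, at 44.5 to 301, mt-Nd3 at 31.3 to 84.7 and mt-Nd4l at 23.9 to 62.9. mt-Atp8 lay lowest, at 3.81 to 8.90 FPKM. mt-Nd6 is encoded on the strand opposite to the others, and as strand use in the counting was not given, its reads cannot be told from antisense ones.

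Several of these genes have copies elsewhere in the annotation. Of all 50-base stretches of mt-Co2, 100% occurred unchanged in another annotated transcript, as did 99.9% of mt-Co3, 99.5% of mt-Atp6, 98.8% of mt-Nd4l and 98.0% of mt-Nd3. For mt-Nd4 this share was 62.2%, for mt-Co1 51.1%, for mt-Nd2 8.19% and for mt-Nd5 7.61%, and it was 0 for mt-Nd1, mt-Nd6, mt-Cytb and mt-Atp8. Most copies lie in a nuclear insertion of mitochondrial DNA on chromosome 1 (chr1:24611535-24616197, GRCm38) and are annotated as unprocessed pseudogenes. The first 60 bases of mt-Co3 are printed with those of its copy Gm28437, which had 0 differences over 783 aligned bases.
mt-Co3: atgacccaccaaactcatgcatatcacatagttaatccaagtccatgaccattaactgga
Gm28437: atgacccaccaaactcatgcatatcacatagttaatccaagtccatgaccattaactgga
In mt-Co1 only part of the gene occurs in other annotated transcripts. Of its copies, Gm29216 had 6 differences over 492 aligned bases. All 6 fall in the stretch from base 1054 to base 1113 of mt-Co1, in which capitals mark the bases that differ.
mt-Co1: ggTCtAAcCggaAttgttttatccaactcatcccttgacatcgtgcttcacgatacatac
Gm29216: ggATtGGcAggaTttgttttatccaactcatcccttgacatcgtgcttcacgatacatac
Reads from such stretches fit more than one place, so the levels of mt-Co2, mt-Co3, mt-Atp6, mt-Nd4l and mt-Nd3 are uncertain. The copy Gm10925 of mt-Atp6 was itself listed with 10982 counts in CONT 1 and 903 to 3367 in the other libraries, and Gm28437 with 4961 and with 502 to 1270. Both copies thus also stood highest in CONT 1. Only annotated transcripts were searched for copies, so genes with a share of 0 may have copies in stretches that are not annotated.

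Both genomes can be set against each other within a library. Counts of the 13 mitochondrial genes per count of the nuclear subunits were 19.3 in CONT 1, 2.89 in CONT 2 and 3.35 in CONT 3, and 3.24, 2.54 and 2.42 in CAC 1, 2 and 3. Outside CONT 1 the groups overlapped. The nuclear subunits took 2.20%, 1.38% and 1.35% of the counts that did not come from mitochondrial genes in CONT, and 1.62%, 1.88% and 1.99% in CAC. In this share CONT 1 was above, and CONT 2 and 3 below, the CAC libraries. As a share of all counts, the nuclear subunits took 1.537%, 1.329% and 1.289% in CONT, and 1.535%, 1.793% and 1.901% in CAC. There CONT 1 was level with CAC 1 and below CAC 2 and CAC 3.

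Genes that serve the chain without matching the symbol rule were counted on lists chosen with earlier results of these data known. Of 9 tested electron carriers and unmatched subunits, 4 had higher CAC values at an edgeR unadjusted p under 0.05 (6.31% of all genes) and 0 lower ones (6.95% of all genes), with 0.49 as the median log2 fold change. Etfdh, which feeds electrons from fatty acid oxidation into coenzyme Q, was read at 53.3, 75.4 and 84.4 CPM in CONT and at 114, 166 and 208 CPM in CAC (log2 fold change 1.20 ± 0.29 SE; edgeR unadjusted p = 0.00546, adjusted p = 0.242). Cyc1, the cytochrome c1 of complex III, was read at 175, 167 and 179 CPM in CONT and at 257, 270 and 301 CPM in CAC (log2 fold change 0.67 ± 0.19 SE; edgeR unadjusted p = 0.00996, adjusted p = 0.273). In both, which were named for the small p values they had, all CAC libraries were above all CONT libraries (11.8% of all genes). Cytochrome c itself, Cycs, overlapped, at 105 to 215 CPM in CONT and 106 to 176 CPM in CAC, as did Ndufab1, the acyl carrier protein of complex I, at 78.6 to 163 and 96.9 to 124 CPM.

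Coenzyme Q synthesis had 5 of 13 genes higher (6.31% of all genes) and 0 lower (6.95% of all genes) at an unadjusted p under 0.05, with a median of 0.22. Coq9, a lipid-binding protein of that pathway, was read at 74.0, 88.0 and 90.0 CPM in CONT and at 136, 159 and 150 CPM in CAC (log2 fold change 0.82 ± 0.18 SE; edgeR unadjusted p = 0.00287, adjusted p = 0.228). Coq8a, a kinase-like protein of the same pathway, had a log2 fold change of 1.46 ± 0.39 (SE; adjusted p = 0.266 in edgeR). Expression of mitochondrial DNA had 7 of 27 genes higher and 0 lower, against the same shares, with a median of 0.37. Among them were Tfb2m, a transcription factor of the mitochondrial genome (0.72 ± 0.19 SE), Lrpprc, which stabilizes its mRNAs (0.53 ± 0.17 SE), and Polg, its DNA polymerase (0.49 ± 0.16 SE), each with an edgeR adjusted p between 0.266 and 0.304. All CAC libraries were above all CONT libraries in these 5 genes (11.8% of all genes), which were named for the small p values they had.

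At the same threshold 6.31% of all genes were higher and 6.95% lower. Of 51 assembly factors tested, 3 had higher values at an unadjusted p under 0.05 and 1 had lower ones (median -0.09), and of 77 mitochondrial ribosomal proteins 4 and 2 did (median -0.19). Without CONT 1 these medians were 0.13 and 0.17. In that fit 8 assembly factors and 15 ribosomal proteins had higher values at the same threshold (7.30% of all genes). Of each list 1 had lower values (8.28% of all genes). Coa3, an assembly factor of complex IV, had lower CAC values, at 90.8, 47.9 and 43.5 CPM in CONT and 37.7, 27.7 and 30.3 CPM in CAC (log2 fold change -0.93 ± 0.32 SE; edgeR unadjusted p = 0.0256, adjusted p = 0.322), while Foxred1 of complex I and Atpaf1 of complex V had higher ones (0.49 ± 0.16 and 0.62 ± 0.22). Mrps6, a protein of the small subunit of the mitochondrial ribosome, had lower values, at 90.8, 35.1 and 36.2 CPM in CONT and 23.4, 15.3 and 16.8 CPM in CAC (-1.54 ± 0.43 SE; edgeR unadjusted p = 0.00967, adjusted p = 0.273). Of 8 carriers and uncoupling proteins tested, 2 had higher values, Slc25a5, an ADP/ATP carrier (0.68 ± 0.26 SE), and Ucp3 (0.78 ± 0.29 SE).

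Among 11 tested regulators of mitochondrial gene expression, 1 had higher and 1 lower values at an unadjusted p under 0.05, where 6.31% and 6.95% of all genes did. Gabpa, the ETS factor named above, was read at 38.3, 41.3 and 44.8 CPM in CONT and at 54.4, 60.4 and 62.9 CPM in CAC (log2 fold change 0.51 ± 0.16 SE; edgeR unadjusted p = 0.0160, adjusted p = 0.290). Esrrg, an estrogen-related receptor, was at most 5.65 CPM in any library and overlapped between groups (log2 fold change -2.22 ± 0.87 SE; edgeR unadjusted p = 0.0410, adjusted p = 0.358). The coactivator Ppargc1a overlapped, at 4.73 to 12.0 CPM in CONT and 8.21, 23.4 and 5.47 CPM in CAC, and so did Ppargc1b, at 6.69 to 8.41 CPM in CONT and 6.94, 18.5 and 15.9 CPM in CAC. Nrf1, Esrra, Gabpb1, Perm1, Pprc1, Nrip1 and Yy1 overlapped between the groups as well, with log2 fold changes from -0.82 to 0.38.

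Markers of other cell types moved with the libraries and are given beside these results. The 12 adipocyte markers summed to 55429 CPM in CONT 1, 24154 in CONT 2 and 28721 in CONT 3, and to 51185, 38007 and 42379 CPM in CAC. These CPM sums have CONT 1 above and CONT 2 and 3 below the CAC libraries. As shares of all counts they were 3.96%, 2.78% and 3.08% in CONT, and 4.99%, 4.12% and 4.33% in CAC, with CONT 1 below every CAC library. Gene by gene in CPM, CONT 1 was highest for 4 of the 12, and all CAC libraries lay above CONT 2 and 3 for 4 of the 12. Of the 81 nuclear subunits, 59 and 58 did so. The sums of the 12 macrophage markers had the reverse order, at 865 CPM in CONT 1, 2322 and 2337 in CONT 2 and 3, and 1033 to 1877 in CAC. The 7 red blood cell markers summed to 5687 CPM in CONT 1, 262 and 394 in CONT 2 and 3, and 1859 to 2451 in CAC. B and plasma cell markers were 55.6 to 95.9 CPM in CONT and 9.82 to 21.6 in CAC, and mesothelial markers 161 to 214 and 70.3 to 297 CPM. Skeletal muscle markers were 49.5 to 135 CPM in CONT and 25.2 to 89.1 in CAC. On an 11-gene list of mural cell markers, chosen after the values had been seen because Cox4i2 and Ndufa4l2 are known from such cells, the sum was 1360 to 1557 CPM in CONT and 1137 to 1776 in CAC. On that list 7 genes were higher and 4 lower in CAC (median log2 fold change 0.07), and at an edgeR unadjusted p under 0.05 0 were higher and 2, Cspg4 and Rgs5, were lower (6.95% of all genes). The part of cell composition in the levels of the subunits was not tested.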

How the data were processed

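Total RNA of eWAT was extracted with TRIzol, poly(A) RNA was selected and cDNA libraries were sequenced, 1 per mouse, in 3 CAC and 3 CONT mice. The authors aligned the reads to the Ensembl release 94 mouse genome (HISAT2 2.0.5) and deposited raw counts per gene, for which featureCounts 1.5.0-p3 is named in the submitters' processing notes. The deposited FPKM values rest on the same counts, divided by the listed gene length and by a size per library. That size was not the total of counts, being below the total in CONT 1 and above it in CONT 2. How it was set was not given in the sources used here. Strand use in counting and the treatment of reads with several places were not given in the sources used here, so overlapping and duplicated genes are uncertain. Coordinates are those of GRCm38 in the count table.

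Counts were tested in R 4.3.3 with edgeR 4.0.16 (quasi-likelihood, robust, TMM, filterByExpr, Benjamini-Hochberg over all 17296 genes tested), condition being the only term. Fold changes are CAC over CONT. CPM values are on the TMM-adjusted library size, on which 1 CPM stood for 11.2 to 26.5 reads, and the common dispersion was 0.265. FPKM served for levels between genes. Alternatives were DESeq2 1.42.0, limma 3.58.1 on log2 FPKM with a pseudocount of 1 or 0.1, for genes reaching 0.5 FPKM in 3 libraries (which understates changes of low genes), other scalings and filters, a replicate block, and each library left out. Voom quality weights, a length offset, the fit without CONT 2 and CAC 3 and DESeq2 without CONT 1 were chosen after seeing the data. Ratios of isoforms were compared with an exact permutation test.

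The members and lists were chosen with earlier results of these data known. Named were all mitochondrial genes, all isoform pairs, the 4 smallest unadjusted p per complex, the highest and lowest fold change per complex, the 3 smallest p per companion list and all regulators. Ndufs4, Ndufs7, Ndufa2, Ndufa5, Ndufa6, Ndufa9, Ndufb7, Ndufc2, Cycs and Ndufab1 were named after their values were seen. Promoters are from RefSeq and transcripts for the copies from GENCODE M21. Labels name separate samples, and methods separate mice. Counts have no molecular identifiers. One named complex I subunit is not reported here.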

Additional observations from a re-analysis of the deposited data

How the results depend on the processing

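No chain member had an adjusted p under 0.05 in edgeR with any scaling, filter or left-out library, while DESeq2 called 6, voom with quality weights 8 and DESeq2 leaving CONT 1 out 38. The nuclear members higher in CAC at an unadjusted p under 0.05 numbered 8, from 3 to 40 with 1 library left out, 30 with voom weights, 14 with the length offset, 0 without CONT 2 and CAC 3 and 54 in DESeq2 without CONT 1. Of all genes, 6.31% were higher in the main test, 3.55% to 7.30% with 1 library left out, 12.4% with voom weights, 7.23% with the length offset, 2.17% without CONT 2 and CAC 3 and 6.94% in DESeq2 without CONT 1. The lower ones numbered 3, and 1 to 4 with 1 library left out (1 without CAC 1 or CAC 2), where 6.95% and 3.69% to 8.28% of all genes were lower. Mitochondrial genes at that threshold numbered 0, from 0 to 9 with 1 library left out, 1 with at least 10 counts in every library, 1 in DESeq2, 2 without CONT 2 and CAC 3 and 4 in DESeq2 without CONT 1. They were lower in CAC in each of these fits except those without CONT 1, and 8.46%, 5.21% and 2.83% of all genes were lower in the 10-count, DESeq2 and germ-cell alternatives. Their median log2 fold change was -2.18, between -2.67 and 0.39 with 1 library left out, 0.21 with voom weights, -0.93 with limma on log2 FPKM at either pseudocount and 0.43 in DESeq2 without CONT 1. In DESeq2 without CONT 1 the medians were 0.44 for all nuclear members, 0.36 for complex I, 0.60 for III, 0.38 for IV and 0.50 for V. With 1 library left out they ranged from -0.16 to 0.56 for complex III, from -0.32 to 0.36 for IV and from -0.23 to 0.46 for V. Without CONT 1, 11 nuclear members were lower in place of 46, and 1 mitochondrial member in place of 13. Among the genes recomputed under every alternative, the sign turned without CONT 1, in voom and in DESeq2 without CONT 1, for Sdhc (0.25, 0.15, 0.29), Uqcrq (0.45, 0.22, 0.50), mt-Co1 (0.40, 0.21, 0.44) and mt-Nd4l (0.68, 0.57, 0.72), and for Atp5k in the last alone (0.028). With 1 library left out the lowest values were -0.44 for Sdhc, -0.70 for Uqcrq, -2.15 for mt-Co1 and -4.43 for mt-Nd4l. The cause was not tested.

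Deviations of same-numbered libraries correlated with r of 0.31, -0.15 and -0.22. Those of other pairs ranged from -0.44 (CONT 2 and CAC 1) to 0.47 (CONT 2 and CAC 3, the libraries with germ-cell transcripts). As such transcripts enter these values, they cannot settle whether the replicate numbers mark pairs. With the replicate block, 4 nuclear members had higher values at an unadjusted p under 0.05 (5.23% of all genes) and the mitochondrial median was -0.73. Fits with a group of 2 rest on a spread shared across groups.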
